A study of Homo sapiens with 9 samples.

Results

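The genes described here are 6 members of the gluconeogenic route, PCK1, PCK2, PC, FBP1, G6PC1 (named G6PC in older annotations) and PPARGC1A, of 22587 genes in the expression table. They were chosen by name for their known place in the route, with earlier results of these data known, and all 6 were listed in the table. RNA was sequenced from HepG2, an established human liver cancer line that the study calls hepatocellular carcinoma, in 9 libraries in 3 groups of 3. The groups were cells in normal medium with glutamine (Gln added), cells kept without glutamine for 12 h, and cells kept without glutamine for 24 h. All groups were grown in high glucose DMEM with fetal bovine serum, and the study's methods also list pyruvate in the medium. The sample labels give GlutaMAX, a stable glutamine dipeptide, as the supplement of the Gln added cells, whereas the treatment protocol names it for the deprivation medium, and the values below cannot tell these statements apart. The labels number the replicates without saying that they are separate cultures, so the p-values measure the spread between these libraries, which may be technical. Reported values are FPKM, fragments per gene scaled by its length and by the library's total, and the fragments on genes that the FPKM steps give back numbered 29618604 to 36258158 per library.

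Gluconeogenesis makes glucose from pyruvate, lactate, alanine and other amino acids. Most of its steps run glycolytic enzymes backwards, and a few irreversible glycolytic steps are bypassed by dedicated enzymes. Pyruvate carboxylase (PC) makes oxaloacetate in mitochondria, a phosphoenolpyruvate carboxykinase turns it into phosphoenolpyruvate in the cytosol (PCK1) or in mitochondria (PCK2), fructose-1,6-bisphosphatase (FBP1) removes a phosphate further on, and the catalytic subunit of glucose-6-phosphatase (G6PC1) frees glucose for release from liver. PPARGC1A (PGC-1alpha) is a transcriptional coactivator known for raising this programme in fasted liver. All 9 hepatocyte markers examined, ALB and HNF4A among them, were detected, with summed levels of 7550 to 7650 FPKM in Gln added libraries, 6614 to 6684 FPKM at 12 h and 6388 to 6721 FPKM at 24 h. Of 9 markers of other liver cell types, 8 were in the table and PTPRC was not analysed here, and COL1A1, COL1A2, PECAM1, VWF, KRT7 and STAB2 stayed below 0.5 FPKM in every library. The list summed to 71.2 to 73.2 FPKM, 52.0 to 57.8 FPKM and 43.0 to 47.7 FPKM in the same order of groups, nearly all of it CD68 and ACTA2. Both sums were lower after deprivation, and their part in the results below was not tested. In bulk RNA, fewer cells of a kind and less RNA per cell cannot be told apart.

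Sequence upstream of 3 members is shown because their transcripts moved differently: G6PC1 rose further with time, PCK2 rose and then held, and PC did not pass the test. The sequences are from RefSeq (GRCh38.p14), cover 250 bases before the annotated start, and are written 5′ to 3′ on the gene's strand. Capitals mark matches to any of 8 short motifs, which were picked after the sequences had been read and searched on both strands.
G6PC1, chr17:42900549-42900798, plus strand: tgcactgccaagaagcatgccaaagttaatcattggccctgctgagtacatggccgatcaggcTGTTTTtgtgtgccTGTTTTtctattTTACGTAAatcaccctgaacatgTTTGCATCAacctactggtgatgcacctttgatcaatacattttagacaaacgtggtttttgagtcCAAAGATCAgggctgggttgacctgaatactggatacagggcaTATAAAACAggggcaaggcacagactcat
PCK2, chr14:24094061-24094310, plus strand: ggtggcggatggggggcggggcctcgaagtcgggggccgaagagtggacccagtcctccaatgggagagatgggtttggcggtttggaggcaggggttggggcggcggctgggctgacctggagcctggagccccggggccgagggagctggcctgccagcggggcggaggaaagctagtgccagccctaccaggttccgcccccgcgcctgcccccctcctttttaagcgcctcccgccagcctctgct
PC, chr11:66958384-66958633, minus strand: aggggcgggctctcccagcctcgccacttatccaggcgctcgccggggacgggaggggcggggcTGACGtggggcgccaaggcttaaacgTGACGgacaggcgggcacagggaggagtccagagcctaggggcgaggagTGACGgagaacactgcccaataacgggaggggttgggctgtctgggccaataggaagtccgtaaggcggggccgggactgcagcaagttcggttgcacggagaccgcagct

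The G6PC1 window was 44% GC with 3 CpG dinucleotides, against medians of 58% and 11 over 35116 RefSeq promoters of that length. It held a TATA box (TATAAA, in 10.7% of all promoters) at -29 to -24 from the start, and an HNF4-type element (CAAAGNNCA, 4.44%) at -72 to -64. A variant cAMP response element (TTACGTAA, 0.105% of promoters) lay at -161 to -154, and a C/EBP-ATF element (TGATGNAAN, 3.13%) on the opposite strand at -138 to -130. The forkhead-type core TGTTTT, in 17.3% of promoters, occurred at -187 to -182, at -173 to -168 and on the opposite strand at -26 to -21, where it overlaps the TATA box. The PCK2 window was 71.6% GC with 17 CpG and matched none of the 8 motifs. The PC window, the entry of 3 for this gene that lies at its outermost start, was 67.6% GC with 21 CpG and held 3 copies of TGACG, a short form of the cAMP response element found in 21.2% of promoters. The full element TGACGTCA, which contains that short form, is in 1.65% of promoters, and the FOXO consensus TGTTTAC is in 2.98%, and neither occurred in the windows shown. PPARGC1A, which also rose further with time, is not shown. Its first entry was 70.8% GC with 33 CpG and its other entry 44% GC with 4 CpG. Neither held a TATA box, an HNF4-type element or a C/EBP-ATF element. The first entry held TGACG at -119 to -115. The other entry held the forkhead-type core on the opposite strand at -177 to -172 and at -118 to -113. The matches describe letters in a window, and a link to the course of a transcript was not tested. Which start HepG2 cells use was not examined.

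Levels per length spanned a wide range among the members, from 47.8 FPKM for PCK2 to 0.0763 FPKM for PCK1 with glutamine. In all 9 libraries they followed the order PCK2, PC, G6PC1, PPARGC1A, FBP1, PCK1, and within each group none of the 5 neighbouring pairs overlapped. Genes averaging 0.5 FPKM or more across all libraries (11880) were tested with limma, and 4 of the 6 members passed this filter. G6PC1 and PPARGC1A would have passed on their Gln added libraries alone. FBP1, with a mean of 0.498 FPKM, lay just under the limit, and PCK1 lay far below at 0.0546 FPKM. In the comparison of 12 h with Gln added, PCK2, G6PC1 and PPARGC1A were higher at an adjusted p under 0.05, that is 3 of 4 tested members, where 29.1% of all tested genes were higher and 60.2% changed either way. At 24 h the same 3 members were higher, where 33% of all tested genes were higher and 64.7% changed. All 3 also had every deprived library above every Gln added library. Of all tested genes 32.8% had this at 12 h and 35.7% at 24 h, while 34.4% and 34.1% had every deprived library below. Both comparisons use the same 3 Gln added libraries and are not independent of each other.

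**Figure D1:**
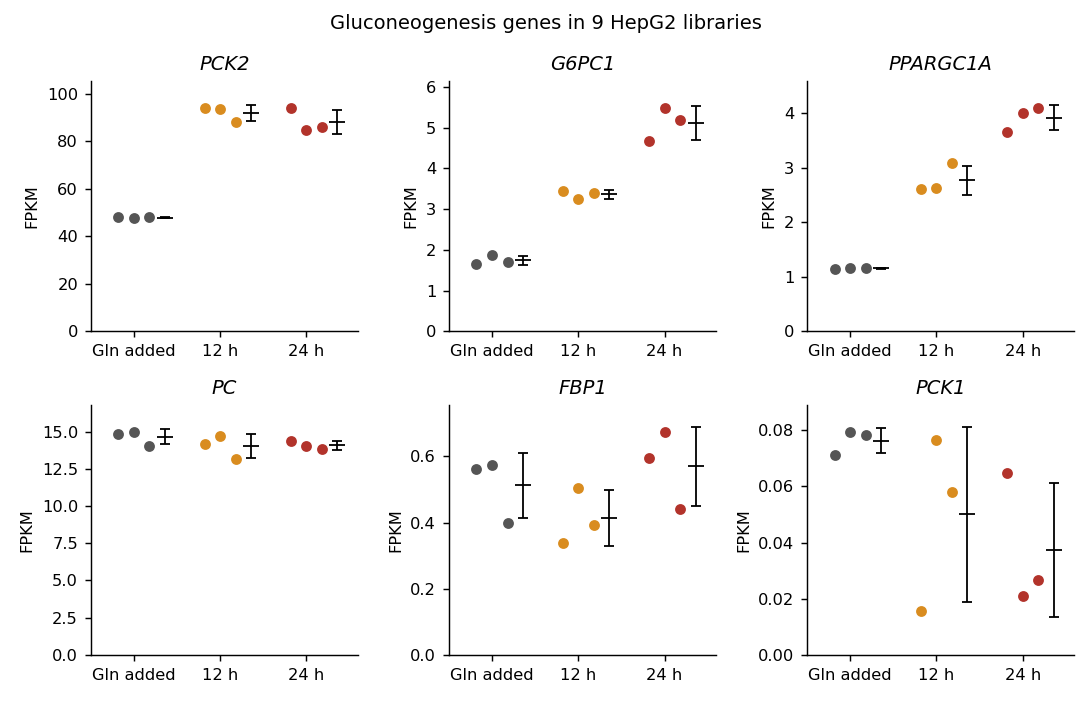
FPKM (y axis, starting at 0, its own scale in each panel) of the 6 genes in each of the 9 libraries, by group on the x axis (Gln added, 12 h and 24 h without glutamine). Points are libraries, and the dash with bars beside them is the mean ± SD of 3. PCK2, G6PC1 and PPARGC1A have every deprived library above every Gln added library, PC stays between 13.2 and 15 FPKM, and FBP1 and PCK1 are below 1 FPKM throughout.

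PCK2, the mitochondrial carboxykinase (chr14:24094053-24110598, plus strand, GENCODE v44 on GRCh38), nearly doubled without glutamine and did so by 12 h. Its level was 48.1, 47.5 and 47.9 FPKM in Gln added libraries, 94.0, 93.5 and 88.0 FPKM at 12 h, and 93.9, 84.5 and 85.9 FPKM at 24 h. The Gln added libraries lay close together and below all 6 deprived ones, and the deprived groups overlapped. Mean levels were 47.8 ± 0.327, 91.8 ± 3.30 and 88.1 ± 5.10 FPKM (SD, n = 3 each), ratios of 1.92 and 1.84 over Gln added. On the log2(FPKM + 0.1) scale the differences were 0.94 at 12 h (SE 0.045, adjusted p = 4.05e-08, limma) and 0.88 at 24 h (adjusted p = 4.20e-08, limma). From 12 h to 24 h the difference was -0.06, with a 95% confidence interval of -0.16 to 0.04 (adjusted p = 0.374, limma). These values rest on 5191 to 10607 fragments per library, the deepest counts of the 6 members. Among the 11880 differences, counted from the largest rise, PCK2 stood at place 295 at 12 h and 522 at 24 h.

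PCK1, the cytosolic carboxykinase and a classical fasting-induced gene of liver (chr20:57561080-57568121, plus strand), was close to undetected in these cells. Gln added libraries held 11, 12 and 12 fragments, the 12 h libraries 2, 12 and 9, and the 24 h libraries 10, 3 and 4. In FPKM these were 0.0713, 0.0795 and 0.0781, then 0.0156, 0.0766 and 0.0578, then 0.0647, 0.0209 and 0.0265. All 24 h libraries lay below all Gln added libraries (exact two-sided permutation p = 0.1, the smallest that 3 against 3 allows), while the 12 h libraries overlapped them (exact permutation p = 0.2). In a limma fit without the filter the log2 difference was -0.26 at 12 h (interval -0.64 to 0.13, adjusted p = 0.337; -0.078 without 12 h library 1) and -0.37 at 24 h (interval -0.76 to 0.02, adjusted p = 0.136), so a fall was not detectable at this depth. The size depends on the constant added to such low values: limma's voom on whole fragments, added after seeing the data, gave -0.77 and -1.11 (adjusted p = 0.313 and 0.124).

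Read together, the mitochondrial form made up 99.83% to 99.85% of the summed FPKM of both carboxykinases in Gln added libraries and 99.92% to 99.98% in deprived libraries. The log2 ratio of PCK2 to PCK1, with 0.1 added to each level, was 8.09 ± 0.044 in Gln added cells, 9.28 ± 0.34 at 12 h and 9.34 ± 0.16 at 24 h (SD, n = 3). The differences of 1.19 and 1.25 reached the smallest p that 3 against 3 allows (exact two-sided permutation p = 0.1 for both). The deprived times differed by 0.06 (exact permutation p = 0.8). PCK2 alone differed by 0.94 and 0.88 on this scale, and the rest, from PCK1, depends on the constant added.

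PC, the mitochondrial enzyme that supplies oxaloacetate to both carboxykinase routes (chr11:66848417-66958386, minus strand), did not pass the test at any time. Its levels were 14.9, 15 and 14.1 FPKM, then 14.2, 14.7 and 13.2 FPKM at 12 h, then 14.4, 14.0 and 13.8 FPKM at 24 h, and all groups overlapped. The log2 differences were -0.06 at 12 h (interval -0.17 to 0.05, adjusted p = 0.290, limma) and -0.06 at 24 h (interval -0.17 to 0.05, adjusted p = 0.342, limma). With 2674 to 3408 fragments per library the intervals are narrow, and their ends stay well within the change of PCK2. Within a library, where scaling cancels, PCK2 was 3.16 to 3.41 times PC with glutamine, 6.34 to 6.69 times at 12 h and 6.03 to 6.53 times at 24 h. Another gene on the opposite strand, LRFN4, covers 8.5% of the exonic bases of PC, and whether counting used strand is not given in the sources used here.

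FBP1, which removes the phosphate that phosphofructokinase adds in glycolysis (chr9:94603133-94640249, minus strand), was expressed at a low level and its groups overlapped. Gln added libraries had 0.563, 0.575 and 0.399 FPKM, 12 h libraries 0.339, 0.505 and 0.394 FPKM, and 24 h libraries 0.594, 0.675 and 0.440 FPKM. Fragments numbered 17 to 38 per library. Without the filter the log2 difference was -0.26 at 12 h (interval -0.73 to 0.22, adjusted p = 0.433, limma) and 0.13 at 24 h (interval -0.35 to 0.60, adjusted p = 0.705, limma). Differences of the size seen for PCK2 lie outside these intervals on this scale, whereas smaller ones in either direction were not detectable at this depth. The opposite-strand gene PCAT7 covers 14.8% of its exonic bases.

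G6PC1, the last enzyme before glucose leaves the cell (chr17:42900797-42914438, plus strand), rose at 12 h and again by 24 h. It had 1.66, 1.86 and 1.69 FPKM in Gln added libraries, 3.45, 3.24 and 3.40 FPKM at 12 h, and 4.67, 5.49 and 5.18 FPKM at 24 h. The 3 groups did not overlap, and the order was the same whichever libraries are set side by side. Means of 1.74 ± 0.108, 3.36 ± 0.109 and 5.11 ± 0.414 FPKM (SD, n = 3) gave ratios of 1.93 and 2.94 over Gln added. The log2 differences were 0.91 at 12 h (SE 0.076, adjusted p = 2.60e-06, limma) and 1.5 at 24 h (adjusted p = 4.07e-08, limma). The step from 12 h to 24 h was tested directly and was 0.59 (adjusted p = 0.000444, limma), a ratio of means of 1.52. Behind these values are 247 to 271, 425 to 510 and 696 to 760 fragments per library, and no other annotated gene overlaps the exons.

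PPARGC1A, the coactivator (chr4:23755041-23904089, minus strand), had the largest rise among the members tested. Its levels were 1.15, 1.16 and 1.16 FPKM with glutamine, 2.61, 2.62 and 3.07 FPKM at 12 h, and 3.65, 4.0 and 4.09 FPKM at 24 h. As for G6PC1, the groups were fully separate and ordered by time without glutamine. Means were 1.16 ± 0.00773, 2.77 ± 0.267 and 3.92 ± 0.234 FPKM (SD, n = 3), ratios of 2.39 and 3.39 over Gln added. The log2 difference was 1.19 at 12 h (SE 0.083, adjusted p = 7.18e-07, limma) and 1.67 at 24 h (adjusted p = 3.48e-08, limma), and from 12 h to 24 h it was 0.49 (adjusted p = 0.00246, limma). It stood at place 162 of 11880 from the largest rise at 12 h and 78 at 24 h, where G6PC1 stood at 316 and 121.

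In the comparison of 24 h with 12 h, 2 of the 4 tested members, G6PC1 and PPARGC1A, were higher, where 9.57% of all tested genes were higher and 20.1% changed either way. Both had all 24 h libraries above all 12 h libraries, as did 17.5% of all tested genes, and 16.9% had them below. Of the genes called in that comparison 47.7% were higher, a share that was 33.4% after median-ratio scaling and 54.3% after rescaling to the same total, and both members were higher under each scaling. The ratio of G6PC1 to PPARGC1A within a library was 1.45 to 1.61 with glutamine, 1.11 to 1.32 at 12 h and 1.27 to 1.37 at 24 h, so every deprived library lay below every Gln added library and the deprived groups overlapped, a difference that was not tested. Against PC, G6PC1 went from 0.112 to 0.124 with glutamine to 0.220 to 0.258 at 12 h and 0.325 to 0.392 at 24 h.

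**Figure D2:**
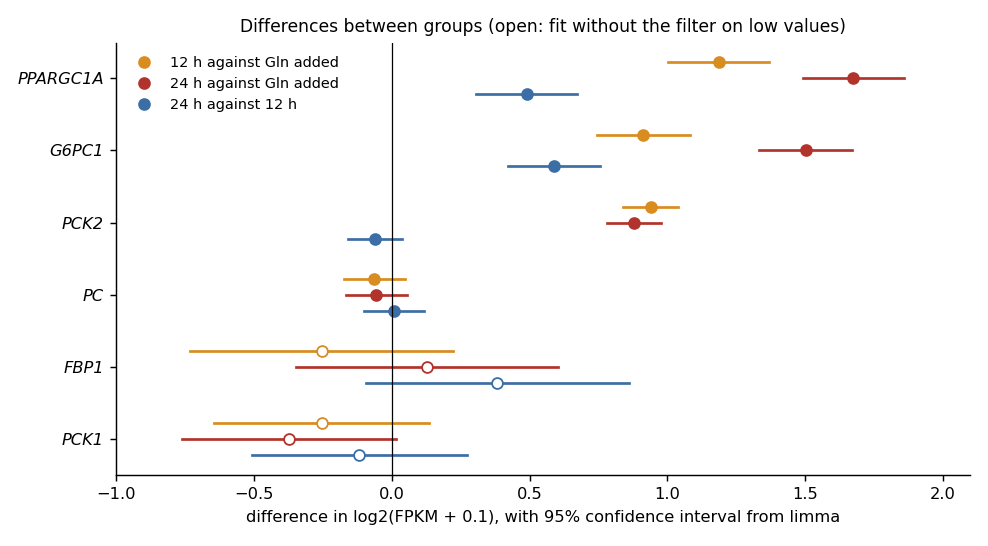
Differences in log2(FPKM + 0.1) between groups (x axis) for the 6 genes (y axis), with 95% confidence intervals from limma over 3 libraries a group. Filled points are from the fit of 11880 genes and open points (FBP1 and PCK1) from the fit without a filter. The intervals of PPARGC1A, G6PC1 and PCK2 at 12 h and 24 h lie above 0, those of G6PC1 and PPARGC1A for 24 h against 12 h (0.59 and 0.49) also do, and every interval of PC, FBP1 and PCK1 crosses 0.

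Genes whose levels followed a member most closely were described by Pearson correlation of log2(FPKM + 0.1) over the 9 libraries, among 10868 genes averaging 1 FPKM or more. The 9 points are 3 groups of 3, so for members whose groups differ these values mostly describe the group means. They carry no p. Closest to PCK2 were NDE1, GPT2 and SLC3A2, each at 0.998, of which GPT2 is the mitochondrial alanine transaminase and SLC3A2 the heavy chain of amino acid transporters. Closest to G6PC1 were LINC-PINT (0.997), WDTC1 (0.995) and LRP10 (0.995), and closest to PPARGC1A were RCN1 (0.998), PRNP (0.997) and ITGA2 (0.997). For PC the nearest genes, CENPB (0.939), TMEM94 (0.938) and INTS1 (0.928), had lower values. The groups of PC overlapped, so its values largely describe differences between single libraries, which may be technical.

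The other genes of the route were read from 5 lists, whose members were counted with the same limma fit. These lists were chosen with earlier results of these data known, so their counts are descriptions. The reversible enzymes that the route shares with glycolysis moved opposite to PCK2 and G6PC1. Of 10 tested, 0 rose and 9 fell at both times, with median log2 differences of -0.51 and -0.55 beside medians over all genes of -0.02 and 0.01, where 31% and 31.7% of all genes fell. The aldolase ALDOC fell by 1.44 and 1.75 and the phosphoglycerate mutase PGAM1 by 0.85 and 1.02 on the log2 scale. A gene on the opposite strand covers 11.3% of the exonic bases of ALDOC. ALDOA did not pass the test (log2 difference 0.02 and 0.00), and another gene on its strand covers 42.8% of its exonic bases. ALDOA is named after its values were seen.

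Among enzymes and carriers that bring carbon to the route, 15 were tested (LDHB was under the filter), and 5 rose and 10 fell at both times, with medians of -0.39 and -0.59. Over all tested genes, here and for the lists that follow, 29.1% rose and 31% fell at 12 h, and 33% rose and 31.7% fell at 24 h. The number that rose, 5 of 15, is near that share, and the number that fell, 10 of 15, is above it. GPT2 (0.85 and 0.76) and GOT1, the cytosolic aspartate transaminase (0.83 and 0.91), rose, while MPC1, a subunit of the mitochondrial pyruvate carrier, fell by 0.76 and 0.79 and the cytosolic alanine transaminase GPT by 1.03 and 0.91. In the list of glucose release and further isozymes, 4 of 6 were tested (FBP2 was under the filter and G6PC2 was not analysed here), and 1 rose and 3 fell at both times. Beside the rise of G6PC1, its partner SLC37A4, which carries glucose 6-phosphate into the endoplasmic reticulum, went from 18.9 ± 0.897 to 11.8 ± 1.01 and 12.5 ± 0.251 FPKM (SD, n = 3), log2 differences of -0.68 and -0.59. The widely expressed subunit G6PC3 fell by 0.51 and 0.52 and the liver glucose transporter SLC2A2 by 0.57 and 0.50, whereas SLC2A1, the glucose transporter of most cell types, rose by 0.54 and 0.61. Per length G6PC3, at 14.3 ± 1.37, 9.99 ± 0.688 and 9.93 ± 0.152 FPKM (SD, n = 3), stood above G6PC1 in every group. On the opposite strand, HDAC5 covers 23.9% of the exonic bases of G6PC3 and TRAPPC4 13.3% of those of SLC37A4.

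**Figure D3:**
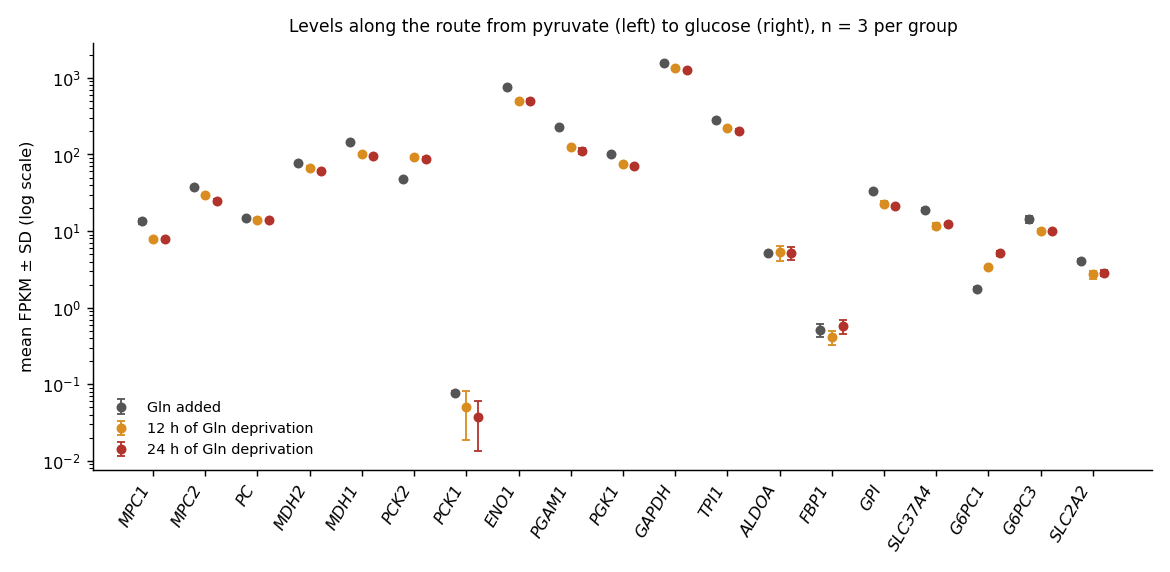
Mean FPKM ± SD (y axis, log scale, n = 3 a group) of genes along the route, ordered on the x axis from pyruvate entry at the left to glucose release at the right. Grey is Gln added, orange 12 h and red 24 h without glutamine. PCK2 (47.8 to 91.8 FPKM at 12 h) and G6PC1 (1.74 to 5.11 FPKM at 24 h) are the members of the route drawn here that rise, and PCK1 and FBP1 are the lowest of the genes drawn.

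Among enzymes of the opposing glycolytic steps, 10 of 14 were tested (HK1, PFKM and PDK4 were among those under the filter). At each time 3 rose and 6 fell, and the genes that fell were not all the same at both times. The share that rose was near that of all genes, and the share that fell was above it (31% and 31.7% of all genes). Over the alternatives 7 to 9 of the 10 tested enzymes were called at 12 h. PFKFB4, which sets the level of fructose 2,6-bisphosphate, fell by 1.90 and 1.64, its relative PFKFB1 by 0.90 and 0.67 (sizes that depend on the constant added), and the liver pyruvate kinase PKLR by 0.72 and 0.81. On the opposite strand, HCN3 covers 17.6% of the exonic bases of PKLR. PFKFB1 passed the filter only through its Gln added libraries (mean 0.778 FPKM, against 0.368 and 0.452 FPKM at 12 h and 24 h). GCKR rose (0.75 and 0.79), as did hexokinase HK2 (0.53 and 0.16). PFKFB2 was 0.23 and 0.28 higher (adjusted p = 0.0470 and 0.0180, limma), calls that several alternatives ended. Transcriptional and signalling regulators of the route moved mainly with PPARGC1A. Of 26 tested (KLF15, PPARGC1B and GCGR were under the filter), 20 rose and 1 fell at 12 h, and 19 rose and 2 fell at 24 h, with medians of 0.56 and 0.61, beside 29.1% and 33% of all tested genes that rose. This list was chosen with earlier results of these data known, so the count describes it and is not a test. The filter also bears on the count. IRS2 and NR4A1 passed it only through their deprived libraries. KLF15, with means of 0.550 FPKM with glutamine and 0.375 and 0.296 FPKM at 12 h and 24 h, fell under it.

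The largest rises in that list were of TRIB3, a pseudokinase known to bind AKT (2.02 and 1.96), DDIT3, the stress-induced factor CHOP (1.72 and 1.58), and CEBPB (1.44 and 1.48), genes also known as targets of the integrated stress response. NR0B2, a repressor of nuclear receptors that lowers gluconeogenic transcription (0.75 and 1.13), the insulin receptor substrate IRS2 (1.01 and 1.46) and the nuclear receptor NR4A1 (1.29 and 1.29) also rose. The list therefore holds genes known to raise and genes known to lower the programme. IRS2 and NR4A1 passed the filter only through their deprived libraries. IRS2 averaged 0.388 FPKM with glutamine and 0.885 and 1.25 FPKM at 12 h and 24 h. NR4A1 averaged 0.352, 1.01 and 1.01 FPKM in the same order. The sizes of both rises depend on the constant added. CEBPA, a hepatocyte factor, fell by 0.29 and 0.61, and CREB3L3 was 0.05 different at 12 h without passing the test and -0.17 at 24 h (adjusted p = 0.0248, limma), a call that some alternatives ended. Exons of other genes on the opposite strand cover 43.9% of CEBPA, 31.6% of DDIT3, 12.6% of CEBPB and 10.3% of NR4A1.

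**Figure D4:**
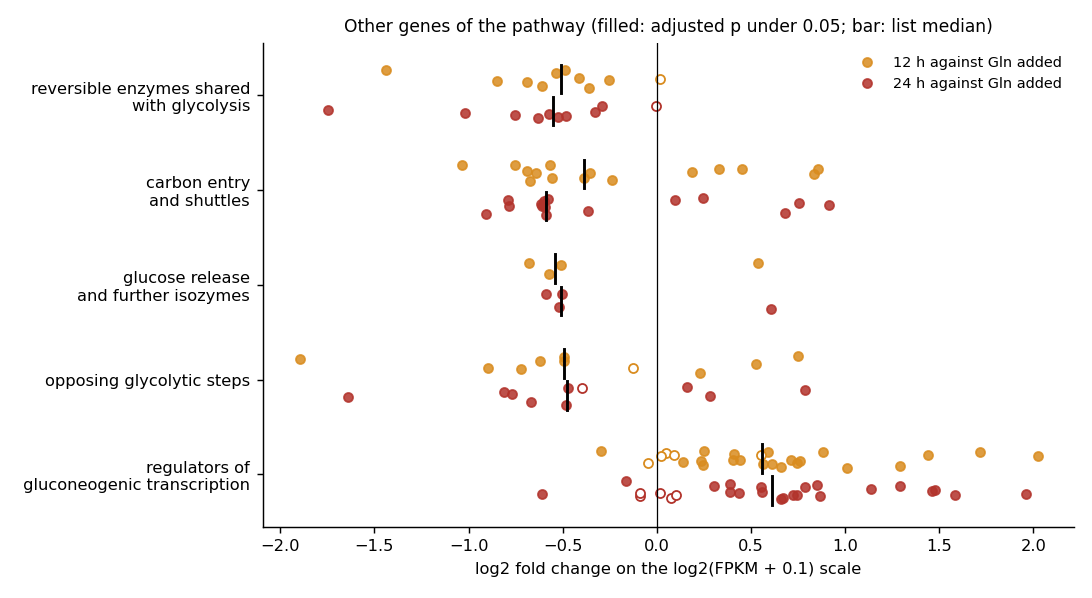
Log2 differences on the log2(FPKM + 0.1) scale (x axis) of the tested genes of the 5 pathway lists (y axis) at 12 h (orange) and 24 h (red) against Gln added. Filled points have an adjusted p under 0.05 in limma, open points do not, and the black bar is the list median. The reversible enzymes lie at or below 0 apart from ALDOA at 12 h (medians -0.51 and -0.55), and the regulators lie mainly above 0 (medians 0.56 and 0.61).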

How the data were processed

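Total RNA of HepG2 cells was sequenced in 9 libraries, 3 each with glutamine and after 12 h and 24 h without it. Per the study's methods, reads were aligned to GRCh38 with STAR, and the submitters' processing notes also name HTSeq and R 3.2.0. The deposited values are FPKM per gene, made by the authors, and the gene annotation is not given in the sources used here. The labels and the methods name different library kits, so strandedness is unsettled.

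From the FPKM steps whole fragments were recovered for 100% of genes (tolerance 0.02), with 29618604 to 36258158 fragments on genes per library. Every pair of replicates differed beyond sampling noise (chi-square per degree of freedom 2.99 to 16.0). Genes averaging 0.5 FPKM or more (11880) were tested on log2(FPKM + 0.1) with limma 3.58.1 (R 4.3.3; trended empirical Bayes, all 3 groups in 1 fit), with Benjamini-Hochberg adjustment over all of them and a threshold of 0.05. A fold change on this scale understates that of low genes. Single values were compared by exact two-sided permutation tests (scipy 1.17.1), which cannot go below 0.1 with 3 against 3. Scripts were tested on simulated data.

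The 6 genes and the lists were chosen with earlier results of these data known. Named list genes are the 2 with the largest rise and the 2 with the largest fall at each time among called genes without overlap between groups, and any over 1 in size on the log2 scale. For each member tested, the 3 most correlated genes are also named. Gene positions and overlaps come from GENCODE v44 (GRCh38) and promoters from RefSeq (GRCh38.p14), which has no entry used here for PCK1. Alternatives were other pseudocounts, filters, scalings and error models, a replicate block, voom on whole fragments, and leaving out each library. Some listed genes under the filter are not reported here.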

Additional observations from a re-analysis of the deposited data

Results flagged for a closer look

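Several genes differed between 24 h and 12 h without glutamine, so that their change against the Gln added libraries was not the same at both times. Each difference was tested directly by the limma contrast of 24 h with 12 h. Among the members, G6PC1 was higher at 24 h by 0.59 on the log2 scale (adjusted p = 0.000444, limma) and PPARGC1A by 0.49 (adjusted p = 0.00246, limma), in 3 of 3 libraries against every 12 h library. Among the other pathway genes, NR0B2 was also higher, with a log2 difference of 0.39 (adjusted p = 0.000494, limma). HK2 was lower, at -0.37 (adjusted p = 0.000101, limma), as were CEBPA at -0.32 (adjusted p = 0.000740, limma) and ALDOC at -0.31 (adjusted p = 0.00300, limma). The differences of CREB3L3, -0.21 (adjusted p = 0.0239, limma), and PGAM1, -0.17 (adjusted p = 0.0409, limma), were, among these 8 genes, nearest to the threshold.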

How the results depend on the processing

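Of 1483 values recomputed under an alternative for 82 results, 1457 were counted as the same, and 0 called values turned direction. For a tested gene, same meant staying on its side of the threshold, with a change of sign allowed where neither value was called. For members under the filter and the PCK2 to PCK1 ratio, it meant a move of less than the pooled SD of the groups compared. Counts of called genes had a wide margin: 2386 between the times became 1652 without 12 h library 1 and was counted as the same. Among values that were not called, the sign varied for FBP1 at 24 h and, between the times, for PC, PCK1 (-0.30 to 0.010 leaving out each library) and the PCK2 to PCK1 ratio (-0.058 to 0.25). The rises of PCK2, G6PC1 and PPARGC1A passed the test under every alternative run, and PC passed under none. PCK1 depends on the constant added: its log2 difference was -0.70 at 12 h and -0.98 at 24 h with 0.01 added, -0.053 at 24 h with 1 added, and -0.77 and -1.11 in voom on whole fragments without a filter. The difference in the PCK2 to PCK1 ratio likewise became 1.64 at 12 h and 1.86 at 24 h with 0.01 added, and 0.92 at 24 h with 1 added. Leaving out each library gave 0.92 to 0.97 and 0.83 to 0.91 for PCK2, 0.88 to 0.96 and 1.45 to 1.56 for G6PC1, and 1.11 to 1.22 and 1.64 to 1.72 for PPARGC1A, at 12 h and 24 h, and -0.38 to -0.078 and -0.51 to -0.29 for PCK1.

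Among the genes named by rule, the calls that were lost, 18 values, were those of CREB3L3 at 24 h and PFKFB2. Other list genes also crossed the threshold: at 12 h the called genes numbered 14 to 15 for carbon entry, 7 to 9 for the opposing steps and 19 to 22 for the regulators. The call of CREB3L3 was lost without a filter (adjusted p = 0.0503, limma), after rescaling to the same total (0.0887), and without Gln added library 2 (0.0773) or 3 (0.0665) or 24 h library 1 (0.0669) or 3 (0.0891). That of PFKFB2 was lost at 12 h without a filter (adjusted p = 0.0991, limma), with only the 6 libraries compared (0.0633), and without any of 7 single libraries (0.0581 to 0.140), and at 24 h without Gln added library 3 (0.0536) or 24 h library 1 (0.0647). IRS2, NR4A1, PFKFB1 and GPT kept their calls, with log2 values at 12 h of 0.44 to 1.17, 0.57 to 1.51, -1.05 to -0.37 and -1.11 to -0.65 over the alternatives other than leaving out a library.

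Same-numbered libraries did not deviate together (correlations of -0.14 to 0.28, and a library correlated best with its own number in 6 of 18 cases), so the numbers were not taken as pairs. With the replicate block, 7341, 7802 and 2586 genes were called at 12 h, at 24 h and between the times, against 7147, 7686 and 2386 without it, PFKFB2 at 12 h was lost (adjusted p = 0.0550, limma), and no call of the 6 genes changed. Depth limits FBP1 (17 to 38 fragments a library) and PCK1 (2 to 12).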

Other observations

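Several listed genes of the route under the filter had these levels. The lactate dehydrogenase subunit LDHB had 0 to 2 fragments per library and the glucagon receptor GCGR 0 or 1. The muscle isozyme FBP2 had 1 to 7 fragments per library, against 17 to 38 for FBP1. PDK4, an inhibitor of pyruvate dehydrogenase, had 0 to 7 fragments with glutamine, 13 to 26 at 12 h and 11 to 17 at 24 h, without overlap with the Gln added libraries at either time. PPARGC1B, the relative of PPARGC1A, had 40 to 47 fragments with glutamine, 19 to 24 at 12 h and 21 to 28 at 24 h, so its deprived libraries lay below and those of PPARGC1A above the Gln added libraries. Among genes above the filter, 32.8% had every deprived library above every Gln added library at 12 h, and 34.4% had every one below. At 24 h these shares were 35.7% and 34.1%, and no share was computed for genes this low. HK1 was at 0.0954 ± 0.00559, 0.0656 ± 0.0255 and 0.136 ± 0.0101 FPKM, PFKM at 0.247 ± 0.0450, 0.228 ± 0.0940 and 0.293 ± 0.0557 FPKM, and KLF15 at 0.550 ± 0.157, 0.375 ± 0.156 and 0.296 ± 0.0251 FPKM (SD, n = 3) in the same order of groups. These genes were outside the main test, and their differences in the fits without the filter are not reported here.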
